A study of Homo sapiens with 9 samples.

Results

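The Sprouty and SPRED genes encode inhibitors of receptor tyrosine kinase and RAS–ERK signaling. They were taken as the 6 genes named SPRY1, SPRY2, SPRY4, SPRED1, SPRED2 and SPRED3 among 58735 genes in the count table, by gene name alone. RNA came from MIA PaCa-2, an established human pancreatic cancer cell line, labelled as genotype WT in all samples. Treatment lasted 24 h, with the ERK1/2 inhibitor SCH772984 at 1 μM, the dual TBK1 and IKKε inhibitor compound 1 at 1 μM, or dimethyl sulfoxide (DMSO) at 0.1% as the control, and 3 libraries were sequenced per condition. All 9 libraries are from this single line at a single dose and time, and the labels do not say whether the replicates of a condition were separate cultures, so the p-values measure the spread between these libraries, which may be technical.

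Sprouty and SPRED proteins share a cysteine-rich C-terminal domain that brings them to membranes, and they differ at the N terminus, where SPRED proteins carry an EVH1 domain. Sprouty proteins hold back signaling between an activated receptor and RAS or RAF, with adaptors and the ubiquitin ligase CBL among their partners. SPRED proteins bring neurofibromin (NF1), a protein that switches RAS off, to the plasma membrane. Transcription of several of the genes is raised by ERK signaling itself, and the proteins then dampen the same pathway, which makes the family a textbook negative feedback loop.

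The 6 genes lie on 6 chromosomes in GRCh38, at chr4:123396795-123403760 (SPRY1, plus strand), chr13:80335976-80340951 (SPRY2, minus), chr5:142310427-142326455 (SPRY4, minus), chr15:38252326-38357249 (SPRED1, plus), chr2:65310851-65432637 (SPRED2, minus) and chr19:38388421-38399587 (SPRED3, plus). The RefSeq promoter table (GRCh38.p14) matched all 6 genes and gave 11 start sites for them, out of 35116 promoters of 250 bases before to 50 bases after a start. Sequence before a start site is printed here for the gene that changed most, for the gene that changed the other way and for others to set beside them, since 5 of the 6 genes moved together with SCH772984. It is limited to stretches outside annotated exons, and all stretches are written 5′ to 3′ on the gene's strand, with the starts of a gene taken in that same order. Capitals mark matches to an AP-1 motif (TGANTCA) or to an octamer bound by the repressor CIC (TGAATGAA).
SPRY4, chr5:142324418-142324497, minus strand, from -250 to -171 of its single listed start, which lies inside the annotated gene: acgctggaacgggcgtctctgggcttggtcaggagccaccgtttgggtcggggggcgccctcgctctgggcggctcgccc
SPRED3, chr19:38389541-38389611, plus strand, from -250 to -180 of the second of its 2 listed starts, inside the annotated gene: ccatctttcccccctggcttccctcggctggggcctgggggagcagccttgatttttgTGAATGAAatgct
SPRED2, chr2:65366779-65367028, minus strand, the 250 bases before the second of its 2 listed starts, inside the annotated gene: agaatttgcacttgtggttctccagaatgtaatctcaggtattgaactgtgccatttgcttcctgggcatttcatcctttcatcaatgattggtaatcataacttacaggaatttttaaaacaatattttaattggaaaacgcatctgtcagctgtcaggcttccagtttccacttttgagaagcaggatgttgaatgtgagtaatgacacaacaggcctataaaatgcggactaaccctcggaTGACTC
SPRY2, chr13:80341127-80341376, minus strand, the 250 bases before the first of its 3 listed starts: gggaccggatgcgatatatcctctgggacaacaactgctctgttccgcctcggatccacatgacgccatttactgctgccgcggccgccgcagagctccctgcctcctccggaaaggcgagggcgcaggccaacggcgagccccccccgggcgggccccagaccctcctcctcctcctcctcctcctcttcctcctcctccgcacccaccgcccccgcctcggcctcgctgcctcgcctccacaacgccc
SPRY1, chr4:123396545-123396794, plus strand, the 250 bases before the first of its 2 listed starts: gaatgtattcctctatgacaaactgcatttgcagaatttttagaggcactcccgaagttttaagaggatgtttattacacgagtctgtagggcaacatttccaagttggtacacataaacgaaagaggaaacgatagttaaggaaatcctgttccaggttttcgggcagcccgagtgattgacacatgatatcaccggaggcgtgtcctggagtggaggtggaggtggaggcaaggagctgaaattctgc

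Both strands of each whole window were searched for 6 motifs, with positions counted from 0 at the start site. The ETS core CCGGAAG was present at 1 of the 11 starts, in SPRY1 at -67 to -61, against 10.3% of all promoters. This is the second SPRY1 start (chr4:123398386) rather than that of the stretch printed above, which held 0 matches, and the bases before it lie in annotated exons and are not shown. The AP-1 motif was present at 2 of the 11 starts, against 7.71% of all promoters. In SPRED2 it lay at -6 to 0, of which the capitals above show all but the last base, and again at 34 to 40, whereas the SPRED2 start at the 5′ end of the gene, not printed, held 0 matches to the motifs. In SPRED3 it lay at -60 to -54 of the second listed start. TGAATGAA was present once, in SPRED3 at -192 to -185 of that same start, and the first SPRED3 start held 0 matches. It is in 1.65% of all promoters. The second CIC octamer TGAATGGA (1.03% of all promoters), the cAMP response element TGACGTCA (1.85%) and the E-box CACGTG (7.26%) were at 0 of the 11 starts. SPRY4, SPRY2 and SPRED1 held 0 matches to the 6 motifs. These are matches of letters in short windows and do not show that a factor was bound there.

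The libraries held 9464432 to 10286223 counts with DMSO, 9652741 to 9840769 with compound 1 and 11056977 to 13887859 with SCH772984. Compound 1 replicate 1 stood apart from its group. A chi-square of its counts against those of the other two libraries, divided by the degrees of freedom, came to 11.1 and 8.29, where sampling noise alone would give about 1 and those libraries gave 2.78 against each other, so the compound 1 results are also given without it. The same measure was 2.44 to 3.33 within the DMSO group and 4.32 to 6.97 within the SCH772984 group. Of the 6 markers of pancreatic carcinoma cells, the keratin genes KRT8, KRT18 and KRT19 and, beside them, the mesenchymal gene VIM were abundant, whereas EPCAM had 0 counts and CDH1 and KRT7 had at most 5 counts in any library. The 6 markers summed to 3470 to 3734 CPM with DMSO, 2973 to 3743 CPM with compound 1 and 1132 to 1279 CPM with SCH772984. From DMSO to SCH772984 the mean went from 2491 to 772.9 CPM for KRT8, from 880.5 to 167.1 CPM for KRT18 and from 252.1 to 272.8 CPM for KRT19. Acinar, endocrine and leukocyte markers had at most 2 counts. The 4 fibroblast markers summed to 457.9 to 507 CPM with DMSO, 468.6 to 532 CPM with compound 1 and 987.5 to 1116 CPM with SCH772984, nearly all of it COL1A2, while the defining markers DCN and LUM had at most 1 count. Of the 3 endothelial markers, CDH5 gave nearly all of a sum of 2.87 to 4.49 CPM with DMSO and 6.24 to 6.78 CPM with compound 1. With SCH772984 the sum was 0 to 0.537 CPM, VWF had at most 4 counts in any library and PECAM1 at most 1. The part of these marker differences in the results that follow was not tested.

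SPRY4 was the member that fell furthest with the ERK inhibitor. SPRY4 blocks growth factor signaling upstream of RAS activation. It had 2303, 2108 and 2064 counts in the DMSO libraries, 2337, 2299 and 2234 with compound 1, and 19, 20 and 41 with SCH772984. As CPM, that is counts scaled to a common library size after adjustment by TMM factors, these are 236.1, 232.8 and 225.9 CPM with DMSO, 251.6, 240.0 and 232.2 CPM with compound 1, and 1.58, 1.69 and 2.75 CPM with SCH772984. Every SCH772984 library lay far below all 6 others, and the compound 1 libraries overlapped those with DMSO. The mean was 231.6 ± 5.19 CPM with DMSO and 2.01 ± 0.648 CPM with SCH772984 (SD, n = 3 each), a log2 fold change of -6.81 (SE 0.11), or 112-fold lower (edgeR's quasi-likelihood test, Benjamini-Hochberg adjusted p = 6.44e-40). Ordered by log2 fold change from the most lower, SPRY4 ranked 3 of 13834 genes tested. The counts carry no measure of RNA per cell, so all fold changes are relative to the other genes, and in bulk RNA fewer cells of a kind and less RNA per cell cannot be told apart.

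**Figure D1:**
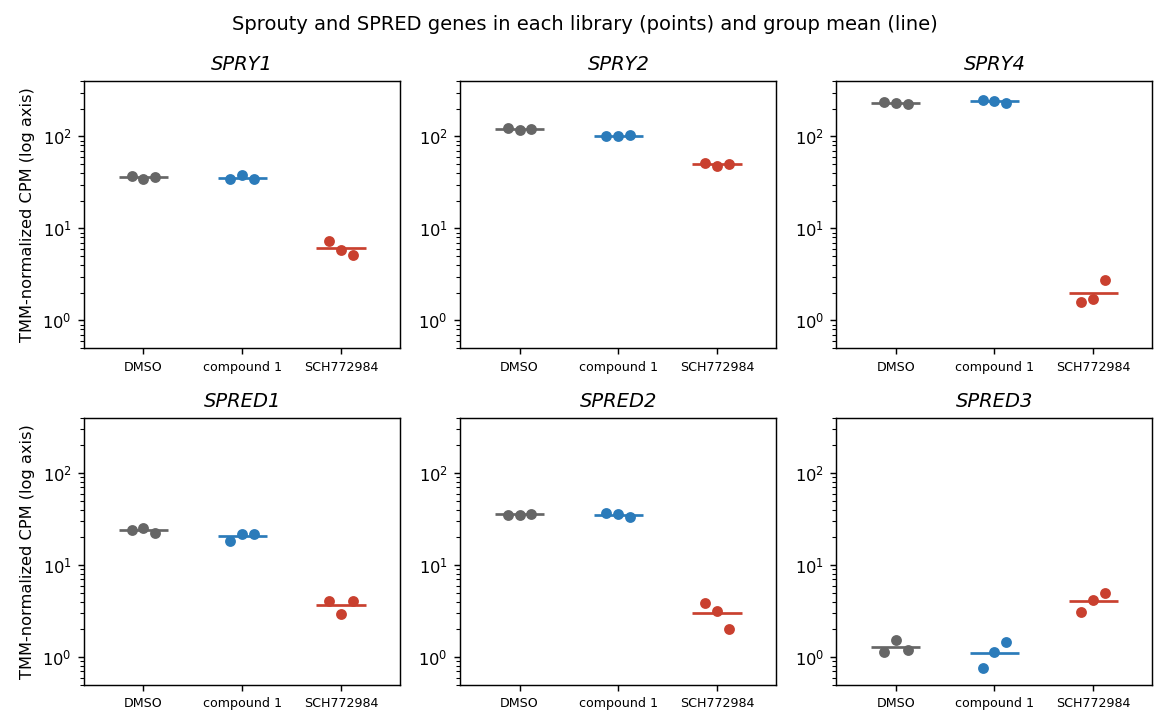
TMM-normalized CPM (log axis) of each Sprouty and SPRED gene in the 3 DMSO, 3 compound 1 and 3 SCH772984 libraries, with points for libraries and a line for the group mean. The SCH772984 points lie below all others for 5 genes, from 236.1 CPM down to 1.58 CPM for SPRY4, and above all others for SPRED3. Of all genes tested, 35.5% were called lower and 37.2% higher with SCH772984 than with DMSO. The share of all genes with points separated in this way was not counted.

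SPRY2, which binds CBL and the adaptor GRB2 and is itself a phosphorylation target in receptor signaling, kept the most RNA. It had 122.4, 116.1 and 120.1 CPM with DMSO, 100.5, 101.3 and 103.9 CPM with compound 1, and 51.6, 47.5 and 49.9 CPM with SCH772984. The 3 groups did not overlap, with DMSO highest and SCH772984 lowest. The difference between compound 1 and DMSO did not pass the adjusted test with all libraries (edgeR adjusted p = 0.149). From DMSO to SCH772984 it fell by 1.27 on the log2 scale (SE 0.07, edgeR adjusted p = 4.04e-20), which is 2.41-fold, and it ranked 889 of 13834 from the most lower.

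SPRY1, a feedback inhibitor known from kidney development, had 36.8, 34.6 and 36.0 CPM with DMSO, 34.2, 38.4 and 34.6 CPM with compound 1, and 7.23, 5.82 and 5.17 CPM with SCH772984. The DMSO and compound 1 libraries were intermingled and the SCH772984 libraries were all lower. The log2 fold change from DMSO to SCH772984 was -2.57 (SE 0.13, 5.95-fold lower, edgeR adjusted p = 1.04e-21).

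SPRED2 fell further than any other SPRED gene. SPRED2 is a broadly expressed suppressor of the RAS–ERK pathway. Its levels were 35.4, 35.3 and 36.3 CPM with DMSO, 36.6, 36.0 and 33.6 CPM with compound 1, and 3.91, 3.21 and 2.01 CPM with SCH772984, the last from 47, 38 and 30 counts. The SCH772984 libraries lay below all others. The log2 fold change from DMSO was -3.58 (SE 0.16, 12.0-fold lower, edgeR adjusted p = 3.36e-24), at rank 29 of 13834 from the most lower.

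SPRED1, the member whose inherited loss causes Legius syndrome, had 24.0, 25.6 and 22.3 CPM with DMSO, 18.2, 21.9 and 21.7 CPM with compound 1, and 4.07, 2.95 and 4.03 CPM with SCH772984. All SCH772984 libraries were lower than all others. The compound 1 libraries lay below the DMSO libraries by a narrow margin, 21.9 against 22.3 CPM at the nearest. That difference did not pass the test (edgeR adjusted p = 0.419). From DMSO to SCH772984 the log2 fold change was -2.70 (SE 0.16, 6.48-fold lower, edgeR adjusted p = 1.18e-19).

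SPRED3, the least expressed member and the one known mainly from brain, moved the other way. It had 11, 14 and 11 counts with DMSO, 7, 11 and 14 with compound 1, and 37, 50 and 75 with SCH772984. In CPM these are 1.13, 1.55 and 1.20 with DMSO, 0.754, 1.15 and 1.46 with compound 1, and 3.08, 4.22 and 5.03 with SCH772984. The SCH772984 libraries lay above all others, and the DMSO and compound 1 libraries overlapped. The log2 fold change from DMSO was 1.67 (SE 0.31, 3.18-fold higher, edgeR adjusted p = 6.87e-06), and SPRED3 ranked 1240 of 13834 from the most higher. With 7 to 14 counts in the DMSO and compound 1 libraries its standard error was the largest in the family.

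By count, 5 of the 6 members were lower with SCH772984 than with DMSO, against 35.5% of all genes tested, and 1 was higher, against 37.2%. All 6 passed the filter on low counts. The median log2 fold change of the members was -2.63, and that of all genes tested was 0.03. With library size as the only scaling, the median of all genes was higher by 0.17, and no member changed direction with SCH772984.

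**Figure D2:**
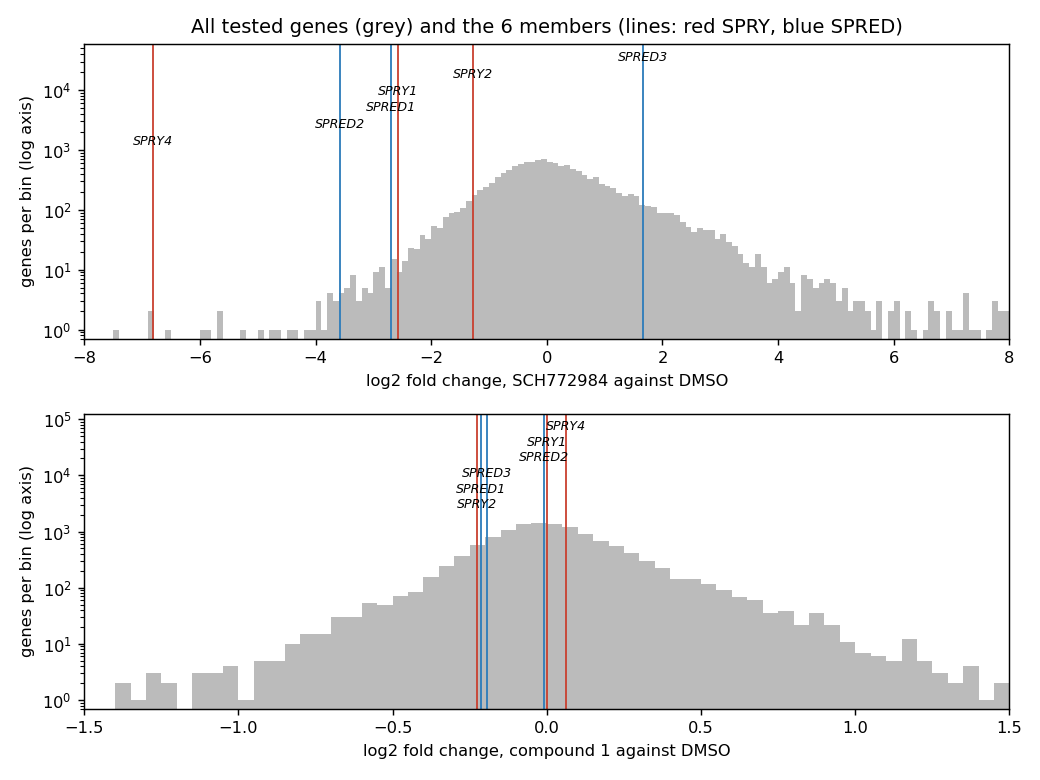
Log2 fold changes of all tested genes (grey, number of genes per bin on a log axis) with SCH772984 (top) and compound 1 (bottom) against DMSO, and the 6 members as lines (red for SPRY, blue for SPRED). With SCH772984 the members spread from -6.81 for SPRY4 to 1.67 for SPRED3, and with compound 1 they lie between -0.23 and 0.06.

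With compound 1, 0 members were lower and 0 were higher than with DMSO by edgeR's adjusted p, against 0.374% and 0.49% of the 12849 genes tested. At an unadjusted p under 0.05, 1 member was lower, against 7.69% of genes, and 0 were higher, against 7.35%; DESeq2 after adjustment called 0. The median log2 fold change was -0.10 over the members and 0.00 over all genes tested. SPRY2 was the member below the unadjusted threshold, at a log2 fold change of -0.23 (SE 0.07, edgeR unadjusted p = 0.00669, adjusted p = 0.149), with all 3 compound 1 libraries below all 3 DMSO libraries. Without compound 1 replicate 1 the SPRY2 log2 fold change was -0.21 and passed the test (edgeR adjusted p = 0.0284), so that its call turned on this library. In that fit 6.1% of all genes were lower and 3.46% higher, and the median over the members was -0.01. For SPRED1 the value was -0.21 (SE 0.12, edgeR adjusted p = 0.419), and without that library it was -0.13.

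For the other members, 95% intervals were built from edgeR's log2 fold changes and their standard errors. They cover only the spread between these libraries and do not bound what compound 1 could have done. SPRY4 had a log2 fold change of 0.06, with an interval from -0.07 to 0.20, and 0.03 without compound 1 replicate 1. SPRY1 had 0.00, with an interval from -0.20 to 0.21, and 0.03 without that library. SPRED2 had -0.01, with an interval from -0.21 to 0.19, and -0.03 without it. SPRED3, at its low counts, had -0.19 with a wide interval from -1.02 to 0.63, and 0.02 without it. None of these 4 genes passed the adjusted test in either fit.

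The direct comparison of SCH772984 with compound 1 tested the difference between the inhibitors, which shared the DMSO libraries in the comparisons above. Here too 5 members were lower with SCH772984 (32.6% of 13863 genes tested) and 1 was higher (33.7%). SPRY4 differed by -6.87 on the log2 scale (SE 0.15, edgeR adjusted p = 1.38e-18) and SPRED2 by -3.56 (SE 0.18, edgeR adjusted p = 5.84e-13). SPRY1 differed by -2.56, SPRED1 by -2.47 and SPRY2 by -1.04, with standard errors of 0.15, 0.17 and 0.09. SPRED3 was higher with SCH772984 by 1.87 (SE 0.33, edgeR adjusted p = 4.17e-05). Without compound 1 replicate 1 all 6 remained called, with SPRY4 at -6.84, SPRED2 at -3.54, SPRY1 at -2.60, SPRED1 at -2.56, SPRY2 at -1.05 and SPRED3 at 1.66.

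**Figure D3:**
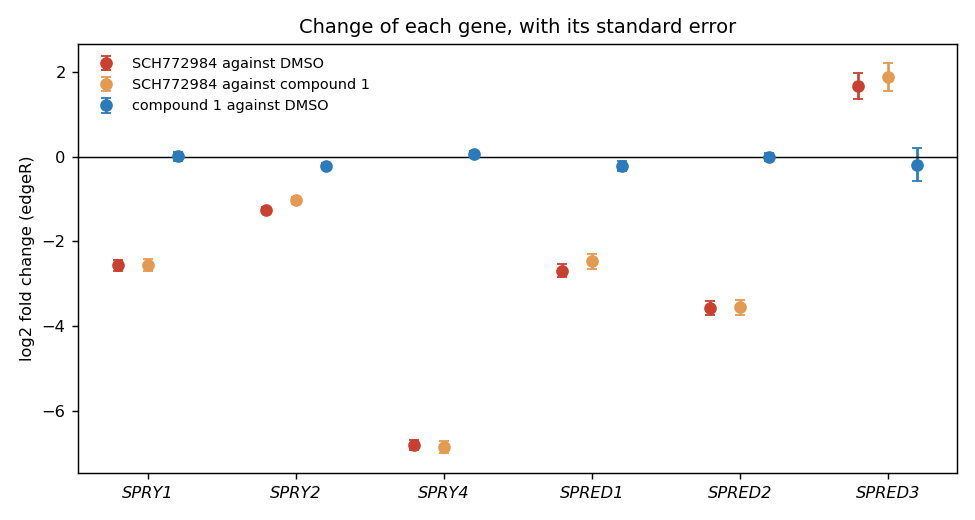
Log2 fold change of each member with its standard error (edgeR) for SCH772984 against DMSO, SCH772984 against compound 1 and compound 1 against DMSO (n = 3 libraries per group). Both contrasts with SCH772984 put SPRY4 lowest, at -6.81 and -6.87, and SPRED3 above 0, and the contrast of compound 1 with DMSO stays between -0.23 and 0.06.

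The order of the members by level changed with the ERK inhibitor. Levels were compared between genes per gene length, as FPKM, which is the TMM-normalized CPM divided by the gene length in kilobases that the table gives. That length covers all annotated exons of a gene, 6565 bases for SPRY4 and 3038 for SPRY2. It is not the length of the transcripts expressed, so the order between genes depends on it. With DMSO, SPRY2 was highest at 39.3 ± 1.06 FPKM, followed by SPRY4 at 35.3 ± 0.791, SPRY1 at 9.03 ± 0.287, SPRED2 at 6.92 ± 0.111, SPRED1 at 2.90 ± 0.199 and SPRED3 at 0.220 ± 0.0380 FPKM (SD, n = 3), and no neighbours in this order overlapped. With compound 1 the order was SPRY4 (36.8 ± 1.48 FPKM), SPRY2 (33.6 ± 0.587), SPRY1 (9.02 ± 0.585), SPRED2 (6.87 ± 0.312), SPRED1 (2.50 ± 0.254) and SPRED3 (0.191 ± 0.0600), again with no overlap between neighbours. By FPKM the top pair was thus exchanged between DMSO and compound 1. By CPM, which is not divided by length, SPRY4 was above SPRY2 in both groups. The means were 231.6 and 119.5 CPM with DMSO, and 241.3 and 101.9 CPM with compound 1. The ratio of SPRY4 to SPRY2 FPKM was 0.893, 0.928 and 0.871 in the DMSO libraries and 1.16, 1.10 and 1.03 in those with compound 1, which is a ratio within a library, picked after its values were seen, and was not tested. Without compound 1 replicate 1 the order with compound 1 was the same, again with no overlap, and the means were 36.0 FPKM for SPRY4, 33.8 for SPRY2, 9.21 for SPRY1, 6.75 for SPRED2, 2.64 for SPRED1 and 0.222 for SPRED3.

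With SCH772984, SPRY2 stood alone at the top at 16.4 ± 0.679 FPKM, followed by SPRY1 at 1.53 ± 0.266 FPKM. SPRED3 came next at 0.701 ± 0.168 FPKM, ahead of SPRED2 (0.590 ± 0.186), SPRED1 (0.446 ± 0.0767) and SPRY4 (0.306 ± 0.0987), and in this lower part each gene's libraries overlapped those of the next. By FPKM, SPRY4 thereby went from the second place to the last, with a ratio to SPRY2 of 0.0142, 0.0164 and 0.0255. Summed over the 6 genes, the level was 92.6 to 95.5 FPKM with DMSO, 87.7 to 89.5 FPKM with compound 1 and 19.1 to 20.8 FPKM with SCH772984. SPRY2 made up 42.0% of the summed mean FPKM with DMSO, 37.8% with compound 1 and 82.1% with SCH772984, and SPRY4 made up 37.7%, 41.4% and 1.53%. With compound 1 replicate 1 left out, the other sums with compound 1 were 89.4 and 87.7 FPKM, of which SPRY2 made up 38.1% and SPRY4 40.6%.

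The share of the family's own counts does not depend on scaling between libraries. SPRY1, SPRY2 and SPRY4 together took 86.4 ± 0.379% of the 6 genes' counts with DMSO, 86.9 ± 0.473% with compound 1 and 84.2 ± 0.310% with SCH772984 (SD, n = 3). Inside that share, SPRY4 went from 51.7 ± 0.541% with DMSO to 2.93 ± 0.943% with SCH772984, while SPRY2 went from 26.7 ± 0.589% to 72.4 ± 0.220%. With compound 1, SPRY4 took 55.3 ± 1.41% and SPRY2 23.4 ± 0.822%, and without compound 1 replicate 1 the means were 54.5% for SPRY4, 23.7% for SPRY2 and 86.6% for the 3 Sprouty genes together. Among the SPRED genes, SPRED1 held 5.35 ± 0.355% with DMSO and 5.35 ± 0.730% with SCH772984, SPRED2 went from 7.97 ± 0.235% to 4.43 ± 1.34%, and SPRED3 from 0.289 ± 0.0516% to 6.02 ± 1.55%. In the SCH772984 library with the fewest family counts (775), the exact 95% binomial interval was 1.58% to 3.96% for SPRY4 and 69.4% to 75.8% for SPRY2, which covers counting error only.

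**Figure D4:**
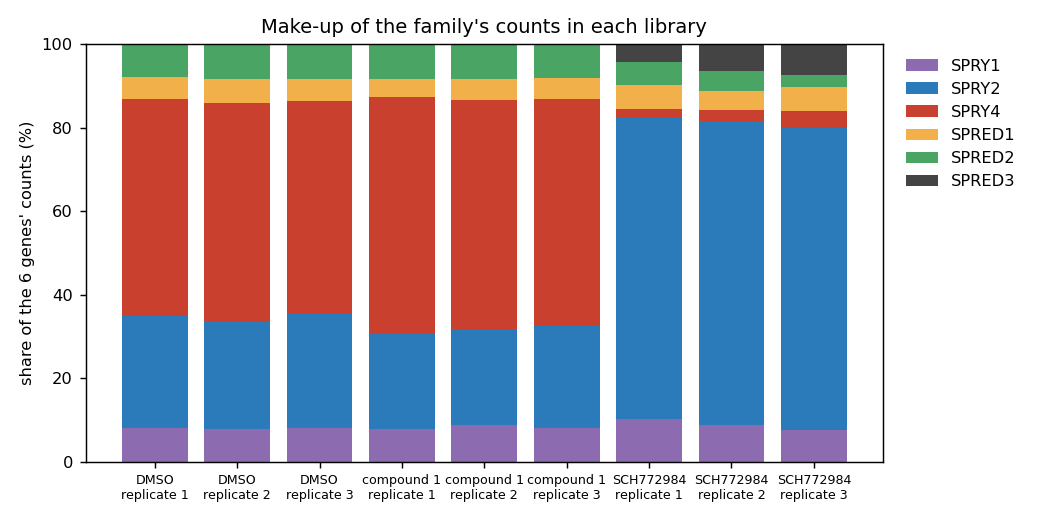
Share (%) of the 6 genes' summed counts that each gene takes in each of the 9 libraries. SPRY4 is the largest part in the DMSO and compound 1 libraries, at 51.1% to 56.9%, and SPRY2 in the SCH772984 libraries, at 72.2% to 72.7%.

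SPRY4 shares its locus with other annotated genes. The antisense gene SPRY4-AS1 starts within the SPRY4 span and runs out of it (chr5:142325293-142672001, plus strand). It had 26, 18 and 23 counts with DMSO, 19, 31 and 18 with compound 1, and 2, 2 and 5 with SCH772984, a log2 fold change of -3.32 (SE 0.48, edgeR adjusted p = 4.39e-08) from DMSO to SCH772984. The short RNAs RF02038 and RF02039, on the opposite strand within SPRY4, had 5 to 11 and 2 to 10 counts with DMSO, 6 to 17 and 1 to 10 with compound 1, and 0 in all SCH772984 libraries. All 3 share 0 exonic bases with SPRY4. Reads from their exons and from those of SPRY4 thus fall on separate bases. Whether counting used the strand is not given in the sources used here. Reads of unspliced RNA from a gene at this locus may therefore be counted for another. In SPRED2 the sense intronic gene AC012370.1 had at most 1 count. SPRY3, the remaining Sprouty gene, had 2 to 17 counts in all libraries and did not pass the filter on low counts.

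By pattern over the 9 libraries, the genes nearest to each member were found by the root mean square distance between log2 CPM values centred on their mean, among 8008 protein-coding genes of at least 5 CPM. ETV5, an ETS transcription factor induced by ERK signaling, was nearest to SPRY4 at a distance of 0.304, followed by the AP-1 subunit gene FOSL1 at 0.507 and the chemokine gene CXCL8 at 0.518. SPRY2 was nearest to GATAD2A (0.048), PPRC1 (0.055) and STEAP3 (0.059). The nearest genes to SPRY1 were PHLDB2 (0.089), GCLM (0.121) and LTBP2 (0.123), and those to SPRED1 were MCM10 (0.085), PHLDB2 (0.144) and FAM111B (0.145). Near to SPRED2 were NOG (0.228) and GPR3 (0.24), and SPRED3 was nearest to KIFAP3 (0.211), HCFC1R1 (0.224) and GFPT2 (0.227). PHLDB2 was named for both SPRY1 and SPRED1. The distances cover all 9 libraries, so the genes nearest to SPRY2 were selected in part for its gap between DMSO and compound 1. For GATAD2A the centred means were 0.51 and 0.28, which follows from that selection and is no separate evidence of the gap.

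Around the family, 24 genes for binding partners and regulators of Sprouty and SPRED proteins were tested with SCH772984. Of these, 9 were lower (35.5% of all genes tested were) and 8 were higher (37.2% of all genes), shares near the background, and the median log2 fold change was -0.03, against 0.03 for all genes tested. SHC1, the adaptor that links receptors to GRB2, fell by 2.05 (SE 0.06) and PTPN11, the phosphatase SHP2 that acts on Sprouty proteins, fell by 1.08 (SE 0.07), both on the log2 scale. MKNK2 and MKNK1, kinases that phosphorylate SPRY2, rose by 2.07 (SE 0.06) and 0.97 (SE 0.10). NF1, the partner of the SPRED proteins, picked out here for that role after its value was seen, had a log2 fold change of -0.53 (SE 0.08) from DMSO. Against compound 1 its value was -0.33 (edgeR adjusted p = 0.0576), which did not pass, and without compound 1 replicate 1 it was -0.53 (edgeR adjusted p = 3.49e-07). With SCH772984 against compound 1, 7 were lower and 7 higher (32.6% and 33.7% of all genes), with a median of -0.01, and 9 were lower and 6 higher without compound 1 replicate 1 (31.9% and 33.5% of all genes), with a median of 0.00. There SHC1 fell by 2.15 and PPP2CA, the catalytic subunit of the phosphatase PP2A, fell by 0.86, while MKNK2 rose by 1.98 and MKNK1 by 0.84. Without that library PPP2CA was at -0.86 and PTPN11 at -0.96, and SHC1 was at -2.16, MKNK2 at 2.07 and MKNK1 at 0.95.

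Of 12 other feedback inhibitors of receptor and ERK signaling, 9 could be tested. With SCH772984 5 were lower (35.5% of all genes) and 3 were higher (37.2% of all genes), with a median of -0.55 on the log2 scale. DUSP6, a phosphatase specific for ERK, had 25 to 51 counts in the DMSO libraries and 0 to 1 with SCH772984. Against a floor of 3 counts per library it was at least 17.7-fold lower, and the list's median was the same with DUSP6 at this bound. DUSP7, a phosphatase of the same group, fell by 2.78 (SE 0.08) and DUSP5, a nuclear ERK phosphatase, fell by 3.51 (SE 0.38). ERRFI1, an inhibitor of EGFR, fell by 1.63 (SE 0.06) and SOCS3, an inhibitor of cytokine signaling, fell by 0.55 (SE 0.19). IL17RD (also called SEF), which holds back FGF signaling, rose by 0.78 (SE 0.12), LRIG1, which lowers receptor levels, by 0.62 (SE 0.15) and the phosphatase DUSP9 by 1.20 (SE 0.34). Against compound 1 the counts were again 5 lower and 3 higher (32.6% and 33.7% of all genes), with a median of -0.73, or -0.70 with the same counts without compound 1 replicate 1. There DUSP6 was at least 17.8-fold lower, and the log2 fold changes were -3.79 for DUSP5, -2.53 for DUSP7, -1.53 for ERRFI1 and -0.73 for SOCS3, and 0.97 for IL17RD, 0.83 for LRIG1 and 1.35 for DUSP9. Without that library they were -3.57 for DUSP5, -2.45 for DUSP7, -1.56 for ERRFI1 and -0.70 for SOCS3, and 1.08 for IL17RD, 0.92 for LRIG1 and 1.61 for DUSP9.

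Of 18 tested transcription factor genes that act at or below ERK, 14 were lower (35.5% of all genes) and 2 were higher (37.2% of all genes) with SCH772984, with a median of -1.30. ETV5 fell by 6.54 (SE 0.15) and FOSL1 fell by 5.94 (SE 0.15) on the log2 scale. The 2 higher genes encode repressors that ERK signaling holds in check. CIC, which binds the octamers described above, rose by 1.41 (SE 0.07) and ERF, an ETS family repressor, by 0.71 (SE 0.07). Against compound 1, 14 were again lower and 2 higher (32.6% and 33.7% of all genes; median -1.17), with ETV5 at -6.57, FOSL1 at -5.71, CIC at 1.64 and ERF at 1.07. The counts were equal without compound 1 replicate 1 and the median was -1.19, with ETV5 at -6.48, FOSL1 at -5.66, CIC at 1.66 and ERF at 1.16.

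Of the receptors whose signaling the family restrains, 14 were tested. With SCH772984, 11 were higher (37.2% of all genes) and 2 were lower (35.5% of all genes), with a median of 0.71. FGFR3 rose by 2.25 (SE 0.09) and EGFR by 1.13 (SE 0.06), while AXL fell by 0.39 (SE 0.07) and FGFRL1, an FGF receptor without a kinase domain, fell by 0.21 (SE 0.08). PDGFRB, with 0 to 2 counts with DMSO and 64 to 99 with SCH772984, was at least 19.5-fold higher, and the median of the list was the same with it at that bound. The call of a receptor as lower depended on the libraries and the scaling, and 1 in place of 2 were lower without DMSO replicate 3, without SCH772984 replicate 1 or with library size alone. Against compound 1, 11 were higher (33.7% of all genes) and 0 were lower (32.6%) in edgeR's adjusted test (0 also at an unadjusted p under 0.05; median 0.77), with FGFR3 at 2.35 and EGFR at 1.39. Leaving out compound 1 replicate 1 gave equal counts and a median of 0.76, with FGFR3 at 2.33 and EGFR at 1.26.

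With compound 1 against DMSO, 1 of the 24 partner genes was called, CAV1, which encodes the membrane protein caveolin-1 and was lower by a log2 fold change of -0.32 (SE 0.07, edgeR adjusted p = 0.0453). Of 13 receptors 1 was called, AXL at -0.46 (SE 0.08, edgeR adjusted p = 0.0247). Over all genes, 0.374% were lower and 0.49% higher by this test. Without compound 1 replicate 1, CAV1 was at -0.31 (edgeR adjusted p = 0.000625) and AXL at -0.55 (edgeR adjusted p = 4.37e-08). None of the 9 feedback inhibitors or 18 transcription factors passed edgeR's adjusted test, and at an unadjusted p under 0.05 1 of the former was lower, and 6 of the latter were lower and 2 higher, while 7.69% of all genes were lower and 7.35% higher. At that threshold 3 partners and 4 receptors were lower and 0 of either were higher. The medians of the 4 lists were -0.03 for partners, -0.09 for feedback inhibitors, -0.12 for transcription factors and -0.09 for receptors, against 0.00 for all genes tested. Each DMSO library left out in turn ended the calls in both lists, as did leaving out compound 1 replicate 3, and leaving out compound 1 replicate 2 ended that of the receptor. Without compound 1 replicate 1, 1 partner was lower and 2 higher, 1 feedback inhibitor was lower, 5 transcription factors were lower and 1 higher, and 2 receptors were lower, in a fit in which 6.1% of all genes were lower and 3.46% higher. The list medians were then 0.02 for partners, -0.10 for feedback inhibitors, -0.11 for transcription factors and -0.10 for receptors, against 0.01 for all genes.

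**Figure D5:**
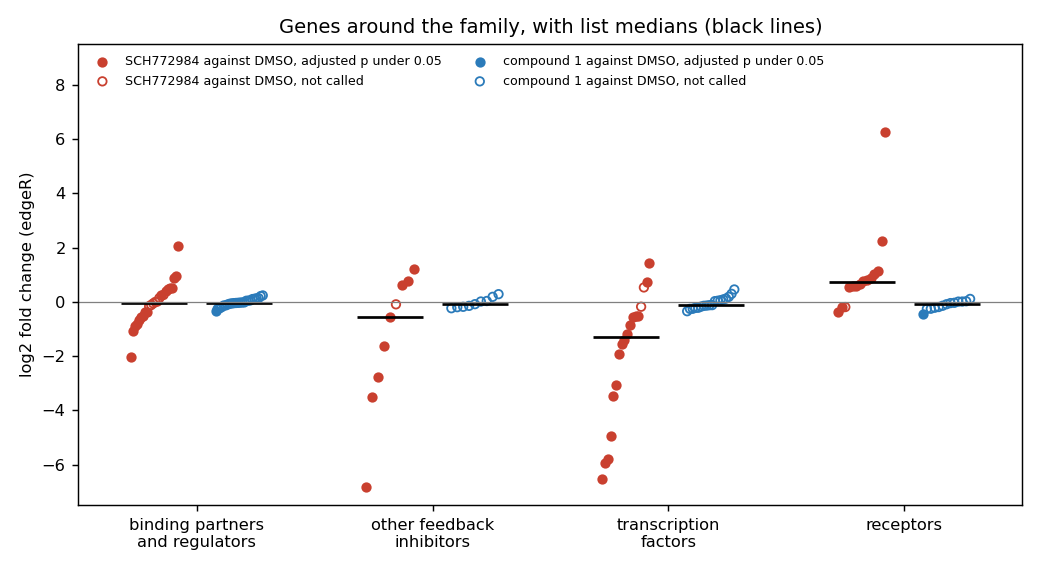
Log2 fold changes (edgeR) of the genes in 4 lists around the family for SCH772984 (red) and compound 1 (blue) against DMSO, with filled points for adjusted p under 0.05, open points for genes not called and black lines for list medians. With SCH772984 the transcription factors reach -6.54 at a median of -1.30 and the receptors have a median of 0.71. The lowest feedback inhibitor (DUSP6) and the highest receptor (PDGFRB) are at the floor in 1 group, so their plotted fitted values are no bounds.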

How the data were processed

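RNA from 9 MIA PaCa-2 samples was measured by RNA-Seq. The authors deposited raw read counts per gene for 58735 genes, without normalization. The submitters' processing notes name HISAT2 2.0.5, featureCounts 1.5.0-p3 and hg38, and the strand setting is not given in the sources used here. Gene identifiers and coordinates of all 58735 genes matched GENCODE 29.

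Libraries were grouped by their labels, and each pair of conditions was fitted separately with edgeR 4.0.16 in R 4.3.3 (quasi-likelihood test, robust, TMM normalization, filterByExpr with a minimum count of 10 and a minimum total of 15). A gene was called at a Benjamini-Hochberg adjusted p under 0.05 over all genes tested. The standard errors of edgeR's log2 fold changes were derived from the fold change and the F statistic of the test, and intervals used a t distribution. Depth was 9464432 to 13887859 counts per library, and the median standard error of a log2 fold change over all genes was 0.115, 0.119 and 0.131 for SCH772984 against DMSO, compound 1 against DMSO and SCH772984 against compound 1. The fit was checked on simulated data.

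The members and gene lists were chosen with earlier results of these data known. Genes named were the members, the 3 genes nearest each in pattern (at least 5 CPM, log2 range of at least 0.5), genes overlapping a member and, per list and comparison, the 2 called genes that rose most and the 2 that fell most among those of at least 5 CPM, or every called gene where 5 or fewer were called. In the text, both directions of a list were counted separately for this. Alternatives were library size alone, RLE factors, no filter, a single fit of all 9 libraries, 10 or more counts in every library, a replicate block, DESeq2 1.42.0, an unadjusted p, a change of at least 2-fold, and leaving out each library. Some genes that these rules select are not reported here. Protein sequences were not used here.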

Additional observations from a re-analysis of the deposited data

How the results depend on the processing

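With SCH772984 against DMSO and against compound 1, every member kept its direction and its call under each alternative in which it was tested. SPRY4 ranged from -7.15 to -6.64 against DMSO and SPRED3 from 1.48 to 1.84. SPRED3 was not tested against compound 1 when at least 10 counts were required in every library, so 0 members were then higher. With compound 1 against DMSO, SPRY2 passed at an unadjusted p (-0.23) and without compound 1 replicate 1 (-0.21, edgeR adjusted p = 0.0284; the range over the alternatives was 0.0284 to 0.431), which made 1 member lower. With each library left out in turn, the members lower ranged from 0 to 1 and SPRY2 from -0.25 to -0.21. No called value changed sign. With compound 1 against DMSO, values near 0 that passed no test did: SPRY1 (0.0016) was at -0.0011 with RLE factors and with DESeq2, -0.0082 with no filter and -0.0017 with all 9 libraries in the fit, and SPRED2 (-0.0088) was at 0.0201 with library size alone. With each library left out, SPRY1 ranged from -0.0606 to 0.0338, SPRED2 from -0.0307 to 0.0253 and SPRED3 from -0.43 to 0.0194. The cause was not tested.

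Whether same-numbered libraries share more than a number is not stated. The correlations of their deviations from the group means were -0.079 to 0.107, and those between libraries of different numbers were -0.101 to 0.149. With so few libraries per group, these values cannot settle whether there was a pairing. The replicate block changed no member's call, with SPRY2 at -0.23 (edgeR adjusted p = 0.106) for compound 1. Over all genes it moved the calls from 111 to 412 with compound 1, from 10066 to 10071 with SCH772984 and from 9193 to 9009 between the inhibitors. It made 1 transcription factor and 2 receptors lower with compound 1.

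Requiring a 2-fold change with SCH772984 against DMSO left 2 partners lower and 1 higher, 1 feedback inhibitor higher, 1 transcription factor higher, and 0 receptors lower and 4 higher. Against compound 1 it left 1 partner lower and 1 higher, 1 feedback inhibitor higher and 5 receptors higher. With compound 1 against DMSO it left 0 partners and 0 receptors lower. At least 10 counts in every library left 3 feedback inhibitors lower in both contrasts of SCH772984. DUSP5 and DUSP6, with as few as 3 and 0 counts in a library, were then not tested. The same filter left 1 receptor lower against DMSO. Both AXL and FGFRL1, with at least 1573 and 403 counts, passed it, and the cause of that change was not tested. Library size alone gave 1 receptor lower with SCH772984 and 0 partners lower with compound 1, and moved 6 mean levels by more than their SD, such as SPRY2 with DMSO to 37.5 FPKM. For compound 1 against DMSO, an unadjusted p gave 3 partners, 1 feedback inhibitor, 6 transcription factors and 4 receptors lower and 2 transcription factors higher. No filter gave 1 transcription factor and 2 receptors lower, and DESeq2 gave 1 transcription factor lower; the cause was not tested. With each library left out, lists with compound 1 ranged from 0 to 1 partners lower, 0 to 2 partners higher, 0 to 1 feedback inhibitors lower, 0 to 5 transcription factors lower, 0 to 1 higher and 0 to 2 receptors lower, and 1 to 2 receptors were lower with SCH772984 against DMSO. Depth limits SPRED3, with 7 to 14 counts outside SCH772984.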
